A study of Mus musculus with 2 samples.

Results

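Chromatin accessibility was examined at 9 genes of epidermal adhesion, out of 15877 protein-coding genes with a promoter region in these data. The 9 genes are Itga6, Itgb4, Itga3, Itgb1, Col17a1, Lama3, Lamb3, Dst and Plec. They were taken as a named list, and their regions were all peaks within 500 bp of a transcription start site or inside the gene body on mm10. Single-cell ATAC-seq was applied to E16.5 mouse back skin, with 1 library from Control and 1 from MOF cKO embryos. In this method a transposase cuts open DNA, and the fragments of each cell then receive a cell barcode. MOF cKO embryos were MOFfl/fl/K14Cre, so that Cre driven by the keratin 14 promoter deletes the floxed gene of MOF (Kat8), a histone H4 lysine 16 acetyltransferase, in epithelial cells. The genotype of the other library is labelled Control with no allele named, and the study describes its controls as wild-type or heterozygous littermates. Cells of both genotypes carried K14-H2BGFP, and GFP+ epithelial and GFP- other cells were sorted by flow cytometry and pooled again. The labels give this pool as 5 parts GFP+ to 1 part GFP-, while the study states other proportions, so class shares describe the libraries and not the skin. The study states that 1 pair of samples was used, and how many embryos went into each is not given in the sources used here. With 1 library a genotype no difference between genotypes was tested, and the 95% intervals below cover counting error only.

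Hemidesmosomes anchor the basal cells of the epidermis to the basement membrane. In each of them integrin alpha 6 beta 4 and type XVII collagen span the cell membrane and meet laminin 332 outside the cell, and the plakins plectin and the epithelial form of dystonin (BPAG1e) tie them to keratin filaments inside. Integrin alpha 3 beta 1 binds the same laminin but works in focal adhesions linked to actin, and loss of several of these genes causes skin blistering.

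Sequences of 2 starts that separated the cell classes and of 4 Dst regions that differed between genotypes are printed here 5′ to 3′, since the results below turn on them. The first pair are the 250 bases before the start of the short Dst transcript (RefSeq variant 4, chr1:34160010-34160259, plus strand) and before a Lamb3 start (chr1:193301744-193301993, plus strand), from RefSeq on GRCm38.p6. The other 4 are 300 bases around the centre of intronic Dst regions on mm10, plus strand. Of these, 3 were higher in MOF cKO epithelial-like cells, the first and second having the largest increases there and the last being the most open Dst region of those cells, and lie at chr1:34251161-34251460, chr1:33989773-33990072 and chr1:34186079-34186378. The region with the largest decrease in the same cells lies at chr1:34156154-34156453. Capitals mark matches to TGANTCA, the core letters bound by the AP-1 factors, which reads the same on both strands.
Dst short transcript, upstream: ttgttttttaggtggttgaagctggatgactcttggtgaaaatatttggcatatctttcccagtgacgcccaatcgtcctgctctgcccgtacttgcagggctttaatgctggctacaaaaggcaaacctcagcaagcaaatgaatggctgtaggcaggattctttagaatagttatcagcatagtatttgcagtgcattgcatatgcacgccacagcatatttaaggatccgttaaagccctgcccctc
Lamb3, upstream: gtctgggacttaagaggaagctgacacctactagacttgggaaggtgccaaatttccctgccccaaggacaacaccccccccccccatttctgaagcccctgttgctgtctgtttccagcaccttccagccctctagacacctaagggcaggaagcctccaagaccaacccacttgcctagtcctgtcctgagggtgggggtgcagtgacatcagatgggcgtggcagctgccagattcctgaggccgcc
Dst intron, higher in MOF cKO, first: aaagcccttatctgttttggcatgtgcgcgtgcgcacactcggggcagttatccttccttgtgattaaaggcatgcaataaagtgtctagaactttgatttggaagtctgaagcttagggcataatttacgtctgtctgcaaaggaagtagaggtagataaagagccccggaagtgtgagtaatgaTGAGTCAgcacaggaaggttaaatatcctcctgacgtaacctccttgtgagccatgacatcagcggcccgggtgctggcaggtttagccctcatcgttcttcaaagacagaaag
Dst intron, higher in MOF cKO, second: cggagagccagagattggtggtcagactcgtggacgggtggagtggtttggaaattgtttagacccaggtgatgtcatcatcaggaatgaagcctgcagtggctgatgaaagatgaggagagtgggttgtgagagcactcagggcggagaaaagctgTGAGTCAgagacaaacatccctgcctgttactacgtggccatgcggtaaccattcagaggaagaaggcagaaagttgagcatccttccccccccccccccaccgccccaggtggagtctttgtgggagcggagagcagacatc
Dst intron, higher in MOF cKO, last: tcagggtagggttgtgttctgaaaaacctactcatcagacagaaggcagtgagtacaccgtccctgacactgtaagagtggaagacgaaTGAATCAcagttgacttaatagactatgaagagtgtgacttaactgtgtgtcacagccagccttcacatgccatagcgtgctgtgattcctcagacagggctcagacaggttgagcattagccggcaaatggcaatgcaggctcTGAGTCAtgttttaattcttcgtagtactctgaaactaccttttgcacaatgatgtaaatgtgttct
Dst intron, lower in MOF cKO: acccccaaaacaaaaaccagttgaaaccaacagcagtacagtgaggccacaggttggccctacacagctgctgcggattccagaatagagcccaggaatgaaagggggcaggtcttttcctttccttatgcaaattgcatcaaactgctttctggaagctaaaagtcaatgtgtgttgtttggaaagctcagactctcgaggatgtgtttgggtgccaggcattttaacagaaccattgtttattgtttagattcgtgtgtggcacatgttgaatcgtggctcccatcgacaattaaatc
Each of the 3 regions higher in MOF cKO held 1 or 2 matches, and the region lower in MOF cKO and both upstream stretches held 0. Of all RefSeq promoters, 6.75% held the letters in the same 250 bases. Of the 9 genes, 5 had a sequence in the promoter table.

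Control gave 2541 barcodes with 169641002 cut sites inside peaks. MOF cKO gave 4348 barcodes with 324310197. The libraries shared 21 barcodes. Clusters were built without the regions of the 9 genes and named from marker promoters. This gave 1395 Control and 2640 MOF cKO epithelial-like cells, and 658 and 1252 fibroblast-like cells. Each epithelial-like cluster came almost wholly from 1 library. Fibroblast-like clusters were also uneven, with 175 Control and 643 MOF cKO cells in cluster 1. Cluster 4 held 481 and 99, and cluster 7 held 2 and 510. A cluster of 301 Control cells with a median of 2501 sites a cell had 9 of 10 epithelial markers 2-fold up but stayed unnamed, since its depth was more than 3 times below the median of its library and none of its 10 leading genes was an epithelial marker. Levels are given as CPM, the cut sites of a region scaled to an equal total for each class and library. The 10 epithelial marker promoters summed to 341.2 and 301.3 CPM in epithelial-like cells of Control and MOF cKO. In fibroblast-like cells they summed to 40.6 and 42.0 CPM. The 10 fibroblast markers summed to 139.3 and 106.9 CPM in epithelial-like and 355.0 and 327.3 CPM in fibroblast-like cells. The Kat8 promoter, whose level does not report the deletion, was at 48.8 and 36.7 CPM in epithelial-like cells.

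The 9 genes held 198 regions with a peak in both libraries. Of these 24 were start site regions, 39 lay near another annotated start and 135 were gene body regions more than 2000 bp from any annotated start. Dst is the longest of the genes (chr1:33908225-34308661, plus strand, 400.4 kb) and held 69 of the regions. Lama3 (chr18:12333819-12583013, plus strand) held 40, Itga6 (chr2:71745616-71858416, plus strand) 26, Lamb3 (chr1:193207699-193343878, plus strand) 21 and Plec (chr15:76170974-76232574, minus strand) 16. Col17a1 (chr19:47646344-47692094, minus strand) held 10, Itgb1 (chr8:128685654-128733200, plus strand) 6, and Itgb4 (chr11:115974709-116008412, plus strand) and Itga3 (chr11:95044474-95076801, minus strand) 5 each. The annotated body of Lamb3 runs over Hsd11b1 and G0s2, so several of its upstream regions also lie in those genes. The outermost start region of Dst (chr1:33907506) is shared with Bend6, and a start region of Plec (chr15:76232260) with Parp10. A further 32 regions had a peak in Control only and 70 in MOF cKO only, which is 10.7% and 23.3% of the 300 regions. Over all protein-coding gene bodies the shares were 9.27% and 31.4%. A peak called in one library alone has no value in the other, so these regions were counted and not compared.

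The first comparison asked how far the promoters of the 9 genes were open in epithelial-like against fibroblast-like cells of the same library. Promoters of the hemidesmosome integrin subunit Itgb4, of Itga3, Col17a1, Lama3 and Lamb3 were at least 2-fold more open in epithelial-like cells, 5 of 9 genes in each library. Of all promoters 9.76% passed 2-fold in Control and 8.64% in MOF cKO. Itga6 came close without passing, and Itgb1, Dst and Plec had log2 ratios of the classes between −0.74 and 0.12. The median of all promoters was −0.17 in Control and −0.56 in MOF cKO, so that Plec lay above the typical promoter in both libraries and Dst in MOF cKO. The direction for these 3 genes depends on the scale, since with sites counted per cell the ratio in Control was 0.23 for Itgb1 and 0.26 for Dst, and with median-of-ratios scaling it was −0.26 for Plec. Each value is the sum over the promoter regions of a gene.

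Among the integrins, Itga6, whose product pairs with beta 4 in hemidesmosomes and with beta 1 elsewhere, was at 27.3 CPM in Control and 16.7 CPM in MOF cKO for the epithelial-like cells. In fibroblast-like cells it was at 15.1 and 9.20 CPM, and the log2 ratio of the classes was 0.85 (0.68 to 1.04) in Control and 0.86 (0.68 to 1.05) in MOF cKO. The promoter was thus lower in MOF cKO in both classes, and the ratio of the classes was alike in both libraries. Itgb4, whose long cytoplasmic tail binds plectin, was at 25.7 and 20.8 CPM in epithelial-like and 4.62 and 4.87 CPM in fibroblast-like cells. Its log2 class ratio was 2.48 (2.17 to 2.80) in Control and 2.09 (1.85 to 2.34) in MOF cKO. Itga3 was at 25.8 and 24.7 CPM against 8.96 and 10.4 CPM, a ratio of 1.53 (1.30 to 1.76) and 1.24 (1.08 to 1.41). Itgb1, the partner of many alpha subunits in nearly all cells, was at 41.2 and 26.9 CPM in epithelial-like and 48.6 (45.5 to 51.7) and 45 (42.7 to 47.5) CPM in fibroblast-like cells. On this scale it was the only integrin of the 4 with the fibroblast-like value above the epithelial-like one in both libraries.

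Col17a1, which encodes the transmembrane collagen of hemidesmosomes, was at 16.8 CPM in Control and 15.9 CPM in MOF cKO for the epithelial-like cells and at 2.78 and 2.51 CPM in fibroblast-like cells. Its class ratio was 2.59 (2.20 to 3.01) and 2.66 (2.33 to 3.01). The alpha 3 chain of laminin 332 (Lama3) was at 47.2 and 43.0 CPM against 8.25 and 8.18 CPM. The beta 3 chain (Lamb3) had the largest class ratio of the 9 genes in Control, at 35.3 against 2.90 CPM or 12.2-fold. In MOF cKO it was at 20.9 against 3.51 CPM or 5.94-fold, and Col17a1 then had the larger ratio. The log2 ratios of Lamb3, 3.61 (3.23 to 4.01) and 2.57 (2.29 to 2.86), had counting intervals that did not overlap. The same held for Itgb1, Dst and Plec, and the median log2 class ratio of all promoters went from −0.17 in Control to −0.56 in MOF cKO. The share of all promoters with intervals apart was not computed, and variation between libraries could not be estimated. The plakin genes Dst and Plec had the most sites of all, Dst 73.1 and 65.0 CPM against 84.0 and 87.4 CPM, and Plec 234.6 and 178.2 CPM against 216.6 and 187.2 CPM. Both have many start sites, whose sum hides large differences described below. The plot of promoter levels shows these values side by side.

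**Figure D1:**
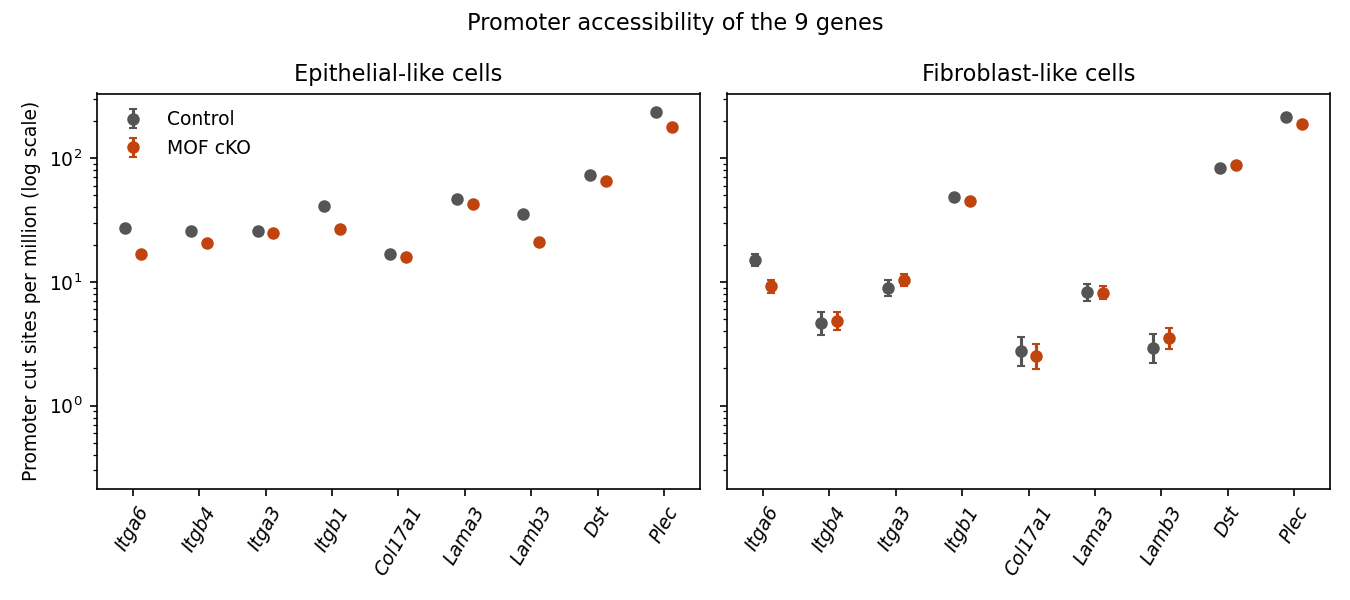
Promoter accessibility of the 9 genes in CPM (log scale) in epithelial-like cells (left) and fibroblast-like cells (right), Control in grey and MOF cKO in orange-red, 1 library each. Points are the sum over the promoter regions of a gene and bars are 95% counting intervals; Lamb3 stands at 35.3 and 20.9 on the left and at 2.90 and 3.51 on the right.

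To see what the sums hide, each start site region was then taken alone. Lama3, Dst and Lamb3 each had a start open almost only in epithelial-like cells, and in Lama3 and Dst this start lay inside the gene, downstream of a start open in both classes. The inner Lama3 start (chr18:12503645-12504510, RefSeq isoform 3A, in an intron of the longer transcript) was at 34.8 CPM in Control and 33.7 CPM in MOF cKO for the epithelial-like cells. In fibroblast-like cells it was at 0.883 and 0.709 CPM, so that the epithelial-like level was 39.4-fold and 47.5-fold higher. The outer start (chr18:12333462-12334362, isoform 3B) was at 12.4 and 9.28 CPM in epithelial-like and at 7.37 and 7.48 CPM in fibroblast-like cells. The 3A form is the short alpha 3 chain of epidermal laminin 332.

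Dst showed the same arrangement. The start of the short transcript (chr1:34159700-34160593, RefSeq variant 4, isoform 4), known to encode the epithelial plakin BPAG1e, was at 21.9 CPM in Control and 16.2 CPM in MOF cKO for the epithelial-like cells. In fibroblast-like cells it was at 0.631 and 0.661 CPM, and the log2 class ratio was 5.12 (4.32 to 6.05) in Control and 4.62 (3.99 to 5.32) in MOF cKO. On the CPM scale the 4 other Dst start regions were all more open in fibroblast-like cells, and other scales were not tried on single starts. In MOF cKO the log2 class ratios at chr1:34010985 (−0.45) and chr1:34236087 (−0.32) lay above the median of all promoters (−0.56). The outermost start (chr1:33907506-33908346, variant 1) was at 19.1 and 14.7 CPM in epithelial-like against 28.8 and 30.4 CPM in fibroblast-like cells. This region is shared with Bend6, so its sites cannot be credited to Dst alone. The start at chr1:34005159 was at 6.78 and 5.63 against 18.3 and 19.2 CPM, and that of variants 2 and 3 (chr1:34010985-34011972) at 13.6 and 13.4 against 19 and 18.3 CPM. These longer forms are known from nerve and muscle. The summed Dst promoter, with a class ratio of −0.20 in Control, thus joins 1 start that was 34.7-fold higher in epithelial-like cells with 4 lower on the CPM scale.

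Lamb3 had 2 start regions. The inner one (chr1:193301529-193302233) was at 28.6 CPM in Control and 15.8 CPM in MOF cKO for the epithelial-like cells and at 1.64 and 1.55 CPM in fibroblast-like cells, 17.5-fold and 10.2-fold. The outer one at chr1:193207931 was at 6.70 and 5.09 against 1.26 and 1.97 CPM. The 9 Plec start regions were spread over both sides on the CPM scale. The start nearest to isoform 1a (chr15:76195921-76196982, 211 bp from the RefSeq start), the plectin form of hemidesmosomes in keratinocytes, was the most open of them and equal in both classes. It was at 60.9 and 52.6 CPM in epithelial-like and 60.7 and 50.1 CPM in fibroblast-like cells. The region of isoform 1g (chr15:76197587-76198444) was 3.17-fold and 1.92-fold higher in epithelial-like cells, where fibroblast-like cells were at 15.7 and 18.2 CPM, and the region at chr15:76208101 at 23.7 and 14.9 against 6.46 and 3.35 CPM. The reverse held at chr15:76205934 (isoform 1), with 6.64 and 8.89 against 14.7 and 13.6 CPM. Itga6, Itgb4, Itga3 and Col17a1 each had 1 start region, and Itgb1 had 2. The first of Itgb1 (chr8:128685239-128686076) held most of its sites, at 39.7 and 25 CPM in epithelial-like cells. The other, at chr8:128724573, was low in epithelial-like cells at 1.51 and 1.91 CPM. The plot of start sites sets the classes against each other.

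**Figure D2:**
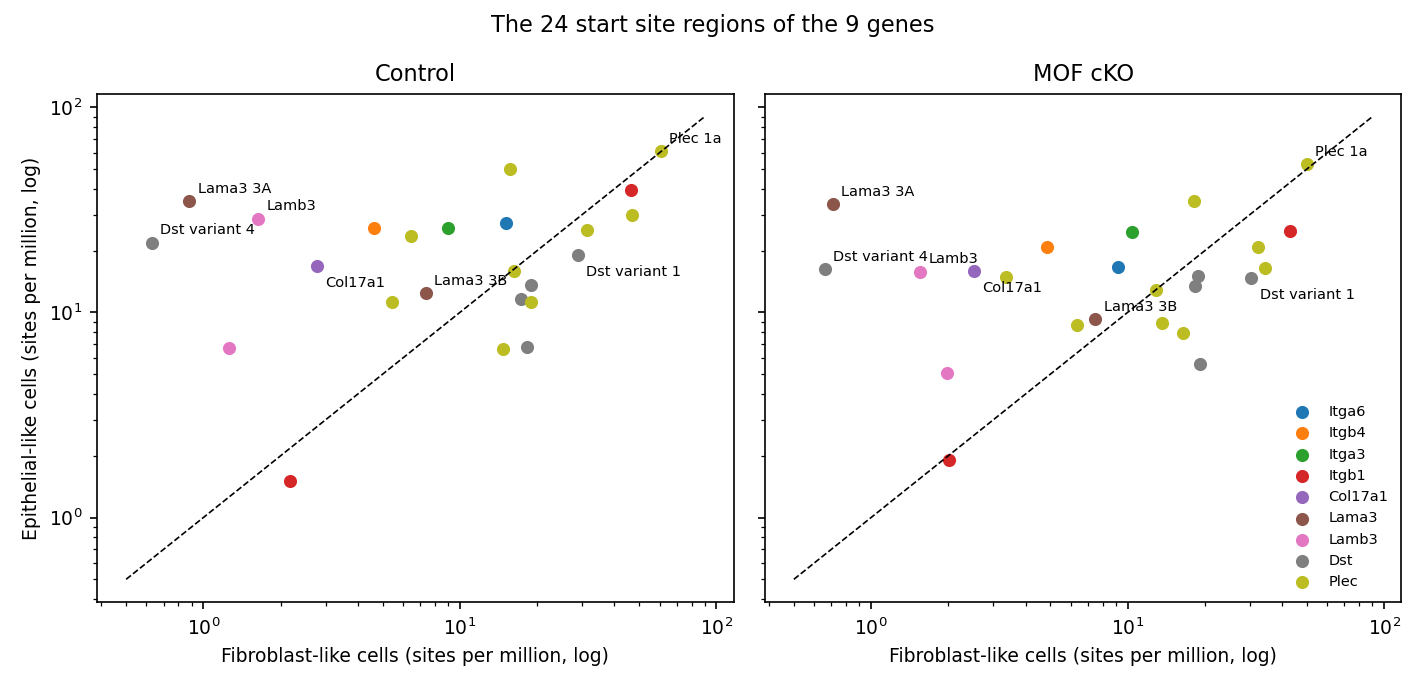
The 24 start site regions of the 9 genes in fibroblast-like (horizontal) and epithelial-like cells (vertical), in CPM on log axes, Control left and MOF cKO right; each point is 1 region, coloured by gene, and the dashed line marks equal values. The short Dst transcript (21.9 and 16.2 against 0.631 and 0.661) and Lama3 3A stand far above the line, while Plec 1a lies on it.

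The second comparison asked how these promoters differed between MOF cKO and Control epithelial-like cells. All 9 were lower in MOF cKO on the CPM scale, with a median log2 of −0.31, as were 85.8% of all promoters, whose median was −0.41. Relative to that median 6 of the 9 were higher and 3 lower, from −0.34 for Lamb3 to 0.35 for Itga3, with a median of 0.11. The direction for these 6 therefore depends on the scale. A gene was called when it lay 2-fold or more from the median. None of the 9 genes was called, in either direction, and of all promoters 0.573% were called lower and 4.33% higher in MOF cKO.

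The 3 genes below the median were Lamb3, Itga6 and Itgb1. Lamb3 had a log2 change of −0.76 (−0.85 to −0.67), lower than all but 6.69% of promoters, and most of it came from the inner start, which went from 28.6 to 15.8 CPM. Itga6 had a change of −0.71 (−0.81 to −0.61), at percentile 8.92, and Itgb1 one of −0.61 (−0.69 to −0.53), at percentile 15.2. Itga3, Col17a1, Lama3 and Dst lay between percentiles 78.5 and 83.6, with log2 changes of −0.06 (−0.15 to 0.03), −0.08 (−0.19 to 0.04), −0.14 (−0.20 to −0.07) and −0.17 (−0.22 to −0.11). Itgb4 at −0.31 (−0.40 to −0.21) and Plec at −0.40 (−0.43 to −0.36) were nearest to the median promoter. The laminin partners thus differed, as Lama3 changed little at its 3A start, from 34.8 to 33.7 CPM, while Lamb3 was lower.

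In fibroblast-like cells the median of all promoters was −0.03 and again no member was called, with a background of 0.768% lower and 2.02% higher. Relative values ran from −0.68 for Itga6 to 0.31 for Lamb3. Itga6 was at 15.1 (13.4 to 16.9) CPM in Control and 9.20 (8.16 to 10.3) in MOF cKO, at percentile 1.69 of promoters. Its decrease was as large in this class as in epithelial-like cells, with a log2 change of −0.71 in both. The mix of fibroblast-like clusters differed between the libraries, and its part in these changes was not tested. Plec was at −0.18 (−0.24 to −0.12) relative to the median. The intervals of the other 7 genes held the median.

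**Figure D3:**
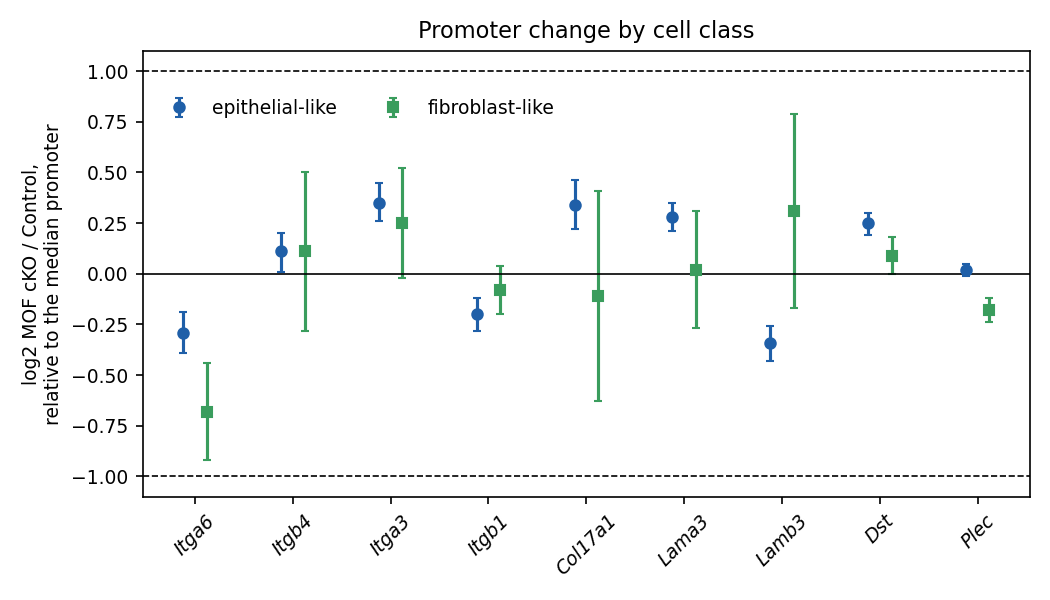
Promoter change of the 9 genes as log2(MOF cKO / Control) relative to the median promoter of the class, in epithelial-like (blue circles) and fibroblast-like cells (green squares), with 95% counting intervals and dashed lines at 2-fold. No point passes 2-fold, and Itga6 is below the median in both classes (−0.29 and −0.68).

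Levels in the smaller classes rested on few sites. Itga6, which endothelial cells use in laminin receptors, was at 43.5 CPM in the 9 Control and 40.3 in the 26 MOF cKO endothelial-like cells, above the epithelial-like value in each library, with overlapping intervals in Control. Itga3 was at 31.4 and 28.2 CPM in the same cells, from 26 and 42 sites. In immune-like cells Itga6 was at 19.9 and 19.2 CPM and Itgb4 at 5.23 and 5.93 CPM. In these smaller classes Col17a1 had few sites, with 1 and 6 in immune-like cells (0.523 and 0.624 CPM) and 0 in mural-like and endothelial-like cells. A count of 0, taken as fewer than 3 fragments, allows up to 6.18 CPM in Control and 1.80 CPM in MOF cKO mural-like cells, and up to 7.25 and 4.03 CPM in endothelial-like cells. Most of these limits lie above the fibroblast-like level of 2.78 and 2.51 CPM, so a lower level was not detectable there. Lamb3 lay between 2.69 and 5.30 CPM in all of these classes. Plec was between 186.2 and 252.0 CPM in every one of them.

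The 9 promoters were then compared across epithelial-like clusters. The 5 large clusters of moderate doublet score were numbers 2 and 5 in Control (742 and 553 cells) and 0, 3 and 6 in MOF cKO (1164, 734 and 539 cells). None of these 5 could be called basal, suprabasal or hair follicle, since 0 of the markers of these kinds were 2-fold above the other clusters, so they are given by number. Between these large clusters of one genotype the highest level exceeded the lowest by 1.87 times for Itga3 in MOF cKO and by at most 1.35 times for the rest. Itga3 was at 29.2 CPM in cluster 0, 26.3 in cluster 6 and 15.6 in cluster 3. Lamb3 was at 38.9 and 36.0 CPM in the Control clusters and at 20.8, 18.8 and 25.1 in the MOF cKO clusters, so that the large clusters did not overlap. Itga6 likewise was at 25.7 and 32.0 CPM in Control and at 14.6, 18.6 and 18.3 in MOF cKO. Itgb1 was at 40.1 and 41.2 CPM in Control and at 26.3, 23.0 and 30.3 in MOF cKO. Itgb4, at 25.4 and 29.3 against 19.2, 24.2 and 20.6 CPM, did not overlap either. Nor did Plec, at 238.2 and 232.6 against 175.7, 170.8 and 185.3 CPM. Of all promoters 85.8% were lower in MOF cKO epithelial-like cells, and the share without overlap by cluster was not computed. Clusters of 1 library are not replicates, and these values describe that library only. Clusters 10 and 12, in which on average 87.1% and 91.1% of the simulated-doublet score's neighbours were simulated pairs against 31.0% to 40.7% in the large clusters, had Lama3 at 31.8 and 29.8 CPM. Lamb3 was at 23.0 CPM in Control cluster 10, inside the range of the large MOF cKO clusters, and at 16.9 CPM in MOF cKO cluster 12. Cluster 14, with 83 MOF cKO cells, a median of 21626 sites a cell and 3 of 10 basal markers 2-fold up, stood above the large MOF cKO clusters for several genes. Itga6 was at 32.3 (22.2 to 45.3) CPM there, Itgb4 at 39.6 (28.4 to 53.8), Itga3 at 43 (31.3 to 57.8), Itgb1 at 44.5 (32.5 to 59.5) and Plec at 279.8 (248.3 to 314.1). All of these genes were above both large Control clusters in value. The intervals of Itga6 and Itgb1, from 66 and 91 sites, held the values of both Control clusters. Lama3, at 59.2 (45.2 to 76.1) CPM, was also above both in value, and Dst was at 69.9 (54.7 to 88.1). Lamb3, at 25.4 (16.6 to 37.3), stayed below the large Control clusters in value. Col17a1, at 11.7 (6.07 to 20.5) from 24 sites, was below the large MOF cKO clusters in value. How all promoters stood in this cluster was not computed.

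Gene body regions were compared between the classes in the same way. Of the 135 regions in the 9 genes, 76 (56.3%) in Control and 83 (61.5%) in MOF cKO were at least 2-fold more open in epithelial-like than fibroblast-like cells. Of all gene body regions 41.9% in Control and 44.4% in MOF cKO were. Regions at least 2-fold less open numbered 20 and 18, 14.8% and 13.3% of the members' regions, against 25.8% and 25.1% of all. Lama3 had the largest share among the genes with over 10 regions, with 27 of 34 regions higher in epithelial-like cells in Control and 29 of 34 in MOF cKO. Its gene body region with the most epithelial sites over both libraries, in an intron at chr18:12462757-12463641, was at 25.8 and 14.8 CPM against 0.530 and 0.387 CPM. By the same measure, that of Itga6 (chr2:71805720-71806817, intron) was at 26.1 and 20.8 against 0.833 and 0.773 CPM, and that of Itga3 (chr11:95072588-95073491, intron) at 23.2 and 13.7 against 0.833 and 0.628 CPM. That of Dst (chr1:34139904-34140741, intron, upstream of the short start) was at 24.2 and 20.3 against 0.732 and 1.10 CPM. That of Col17a1 (chr19:47667222-47668159, intron) was at 17.4 and 19.5 against 1.69 and 3.58 CPM. That of Lamb3 (chr1:193234613-193235512), which also lies in Hsd11b1, was at 7.99 and 4.33 against 1.72 and 2.82 CPM. Itgb4 differed, as its region with the most sites, over an exon at chr11:116004638-116005545, was higher in fibroblast-like cells, at 30.1 and 27.6 CPM against 10.8 and 6.47 CPM in epithelial-like cells.

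Between genotypes, 30 of the 135 regions (22.2%) were called higher and 15 (11.1%) lower in MOF cKO epithelial-like cells. With every cell thinned to 5000 sites these counts were 22 higher and 24 lower, and the cause was not tested. The share of all gene body regions called with cells thinned was not computed. Without thinning, 19.5% of all 77215 gene body regions were called higher and 11.5% lower. The shares of the members without thinning were thus near the background, and their median relative change was −0.12. In fibroblast-like cells 125 regions had enough sites, and 18 were called higher (14.4%) and 15 lower, against 10.8% and 8.61% of all. These counts were 9 and 2 with cells thinned, 10 and 5 with binarised counts and 6 and 6 with a minimum of 100 sites a region. No shares over all regions were computed for these alternatives, so they cannot be set against a background. Dst, with 52 of the 135 regions, held 17 of those called higher and 6 of those called lower, 32.7% and 11.5% of its own. Itga6 had 2 higher and 4 lower of 19, Lama3 5 and 2 of 34, and Lamb3 3 and 3 of 13. Itgb1 had 2 higher of 4 and Col17a1 1 higher of 6, and no region of Itgb4, Itga3 or Plec was called.

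**Figure D4:**
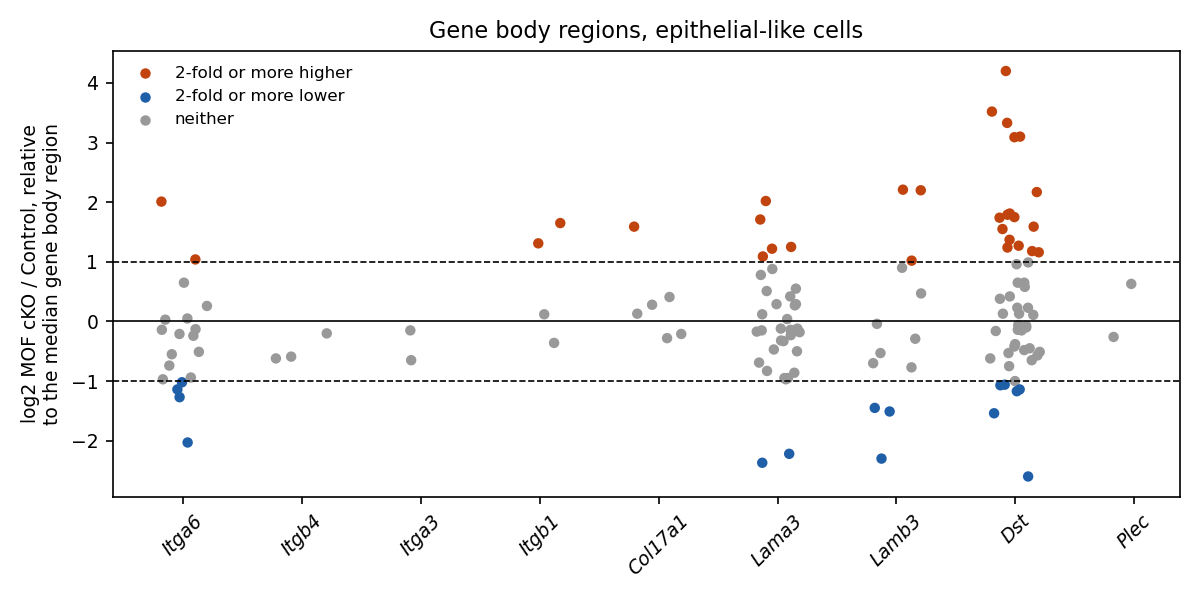
Change of each gene body region of the 9 genes in epithelial-like cells, as log2(MOF cKO / Control) relative to the median of all gene body regions; each point is 1 of 135 regions, spread sideways for visibility, coloured orange-red when 2-fold or more higher, blue when 2-fold or more lower and grey otherwise. Dst holds 17 of the 30 regions past 2-fold upward, up to 4.20.

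The 5 largest increases among regions with at least 500 epithelial sites over both libraries were all in Dst. Control held between 50 and 324 sites at each, so all 5 reached this minimum only through MOF cKO. At chr1:34250852-34251768, in an intron, Control was at 1.02 (0.775 to 1.31) CPM and MOF cKO at 17.3, a log2 change of 4.09 (3.71 to 4.49). The region at chr1:34185770-34186687, just beyond the end of the short transcript at 34183904, was at 2.79 and 22 CPM and was the most open Dst region of MOF cKO. The regions at chr1:33989465-33990380 and chr1:34026780-34027906, both intronic, were at 0.647 and 6.84 CPM and at 0.431 and 3.40 CPM. The region at chr1:34189868-34190858, over an exon, was at 0.862 and 8.0 CPM. In fibroblast-like cells 3 of the 5 were also called higher in MOF cKO, from low levels and with fewer than 100 sites each over both libraries. The region at chr1:34185770 was at 0.151 and 0.806 CPM there, the one at chr1:34026780 at 0.303 and 0.806 CPM, and the one at chr1:34250852 at 0.353 and 0.822 CPM, from 14 and 51 sites, with a counting interval of the log2 change from −0.03 to 2.67. The other 2 were at 2.90 and 2.79 CPM and at 1.41 and 1.64 CPM. Of all gene body regions 10.8% were called higher in fibroblast-like cells. That share among all regions called higher in epithelial-like cells was not computed. The start of the short Dst transcript, at 21.9 and 16.2 CPM, was at −0.03 relative to the median promoter region. Outside Dst, the Itgb1 gene body region with the most sites over both libraries (chr8:128704250-128705337, intron) was at 5.42 CPM in Control and 12.4 in MOF cKO, and that of Plec (chr15:76192536-76193454, intron) was at 14.6 and 20.8 CPM.

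The 5 largest decreases, counted over all shared regions of the 9 genes with as many sites, were spread over 4 genes. The Dst intron at chr1:34155823-34156784 lies 3546 bp from the nearest annotated start, upstream of the short transcript, and was at 3.93 (3.44 to 4.48) CPM in Control and 0.599 (0.459 to 0.768) in MOF cKO. A Lama3 intron at chr18:12358841-12359759 was at 18 and 3.21 CPM, a log2 change of −2.49 (−2.67 to −2.31), and at 0.303 and 0.177 CPM in fibroblast-like cells. It lay between the 3B and 3A starts. A Lamb3 intron at chr1:193295700-193296615 was at 3.12 and 1.01 CPM, and an Itga6 intron at chr2:71763844-71764803, 1077 bp from an annotated start, at 4.17 and 1.37 CPM. The fifth, at chr1:193272902-193273662, lies in the annotated Lamb3 body but at the start of G0s2, and was at 7.78 and 2.84 CPM. The strongest gene body regions of Lama3 and Itga3, at 25.8 and 23.2 CPM in Control, were at 14.8 and 13.7 CPM in MOF cKO, without passing 2-fold. The plot of Dst regions along the gene shows both kinds.

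**Figure D5:**
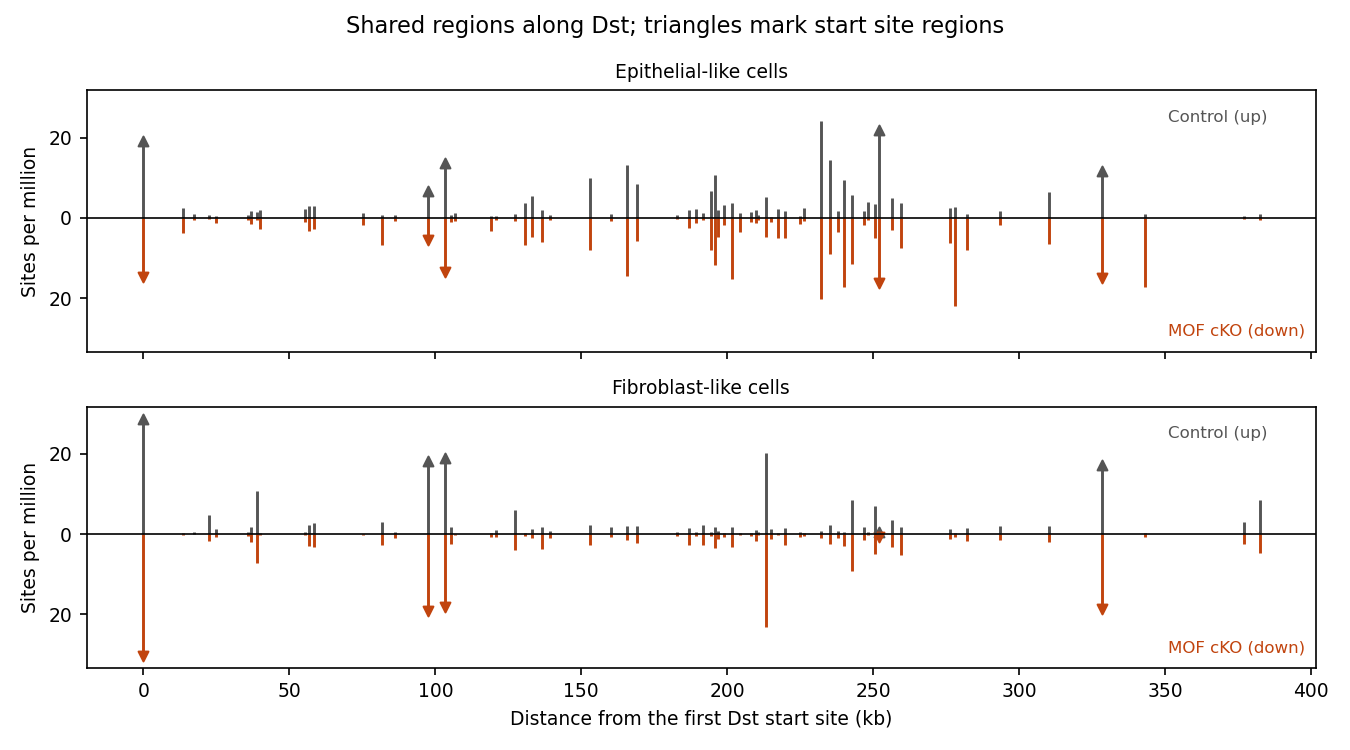
The 69 shared regions of Dst by distance from its first start site (kb), in epithelial-like (top) and fibroblast-like cells (bottom); bars give CPM, upward for Control in grey and downward for MOF cKO in orange-red, and triangles mark the 5 start site regions. The start of the short transcript has 21.9 and 16.2 on top and 0.631 and 0.661 below, and the region at 2.79 and 22 has the longest MOF cKO bar on top.

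The AP-1 letters TGANTCA, shown in capitals in the sequences above, were counted in 300 bases around the centre of each gene body region. This search was chosen with earlier results of these data known. They were present in 18 of the 30 member regions called higher in epithelial-like cells, in 17 of the 90 called in neither direction (18.9%) and in 0 of the 15 called lower. Over all gene body regions the shares were 56.3%, 15.2% and 5.74%, and 22.1% in total, and the shares among the members stood near these. In Dst 11 of 17 regions called higher held the letters. They included the 5 with the largest increase, which reached the site minimum only through MOF cKO. The TEAD letters GGAATG (both strands) were in 8 of the 30 regions called higher and 2 of the 15 called lower, with 20.6% over all regions. The p53 family letters CATGNNNNNNCATG were in 3 of the 135 regions and in 1.81% of all. A match describes the letters only, and binding was not measured.

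Of 36 other basement membrane and adhesion genes, all had a promoter value. In epithelial-like cells the median of the 36 relative to all promoters was 0.01. Of them 1 was called higher and 0 lower, against 4.33% and 0.573% of all promoters. Krt14, the basal keratin, was that gene, at 37.7 CPM in Control and 73.2 in MOF cKO. The Cre and GFP transgenes are named after the same gene, and whether they add reads at its promoter was not tested. Next came Col7a1, the anchoring fibril collagen below the hemidesmosome, at 9.34 and 13.7 CPM. The lowest were Col4a6, a basement membrane collagen chain, at 5.50 and 2.32 CPM, and the laminin chain Lamc1 at 46.4 and 23.0 CPM. In fibroblast-like cells 3 of the 36 were called higher and 0 lower, against 2.02% and 0.768% of all promoters. They were Krt14, Itgb6 and Lad1, at 0.883 and 3.77, 2.04 and 4.50, and 2.20 and 4.35 CPM. Itgb6 and Lad1, an integrin subunit and the anchoring filament protein ladinin, fall outside the rule for named genes and were chosen after their values were seen. The summed epithelial markers in these cells were 40.6 and 42.0 CPM, and their part in these 3 values was not tested.

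Over the 3 classes with at least 20 cells in each library, 6 points in all, the promoters most like the mean of the 9 genes were those of Anxa9, Zdhhc19, Sdr16c5, Anxa7 and Ckmt1, with Pearson correlations of 0.996 to 0.999 across log2(CPM + 5). These points share libraries, so the values are a description. Each of the 9 genes was also set against this mean, which includes the gene itself. Lamb3, Itgb4 and Lama3 followed it most closely, at 0.986, 0.985 and 0.982. Itgb1, Plec and Dst did not, at −0.525, −0.169 and −0.109.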

How the data were processed

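The deposited values are raw, unnormalized counts: for every peak and barcode, the number of transposase cut sites. The authors made them with cellranger-atac 2.0.0 on mm10, calling peaks and cells separately per library. Barcodes with at least 1000 sites were kept (2481 Control, 4348 MOF cKO cells). Of the values 88.8% and 91.6% were even, since both ends of a fragment often fall in 1 peak, so intervals were computed on fragments (sites divided by 2): exact Poisson for levels and exact conditional binomial for ratios, at 95%. PCR and capture variation are not covered.

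Both peak lists were merged, and 214119 regions with a peak from each library were used. Start sites came from protein-coding transcripts of GENCODE vM21, and RefSeq variants were matched within 500 bp. Gene names are those of the annotation. Reads of a gene and of an overlapping one cannot be told apart. Sites were summed per class and library and scaled to the total over shared regions (CPM). Features needed 20 sites over both libraries, and a call was 2-fold relative to the median of all features of the kind.

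Cells were clustered on 50000 regions, without those of the 9 genes, by term frequency weighting, 30 singular vectors less those following depth, and Leiden clustering at resolution 1. A class name needed 3 markers 2-fold up, with a pseudocount of 5 CPM, and no more markers of another class than of its own among the 10 leading genes. A cluster more than 3 times shallower than its library needed at least 1 of its own markers there. Doublets were scored by the share of simulated pairs among nearest neighbours, and were left out only as an alternative. Ratios and intervals were tried on counts simulated from the counting model that the intervals assume. Variation between cells or libraries was not simulated, so the trial checks the computation only. Python 3.11.15, numpy 2.4.6, scipy 1.17.1, scikit-learn 1.9.0 and leidenalg 0.10.2 were used.

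The 9 genes, the other list and the rules were chosen with earlier results of these data known. Named were the 9 genes, Kat8, the 2 highest and 2 lowest of the other list, each gene's strongest start and gene body region, the 5 regions with the largest change each way among those with at least 500 epithelial sites, and the 5 genes of most like profile. Alternatives changed the scaling, depth, cells, window, clustering and reference, and 3 were added after seeing the data.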

Additional observations from a re-analysis of the deposited data

Results flagged for a closer look

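An intronic region of Itga6 and one of Lama3 were called in opposite directions in epithelial-like and fibroblast-like cells, with counting intervals of both changes apart from the median. Of all gene body regions 19.5% were called higher and 11.5% lower in epithelial-like cells, and 10.8% and 8.61% in fibroblast-like cells. The share of all regions called in opposite directions was not computed. With 1 library a genotype the difference between the classes was not tested. The Itga6 region at chr2:71777887-71778772 was at 2.63 and 1.20 CPM in Control and MOF cKO epithelial-like cells, −1.02 relative to the median, and at 1.19 and 3.14 CPM in fibroblast-like cells, 1.39 relative to the median. The Lama3 region at chr18:12456335-12457781 was at 0.681 and 1.46 CPM in epithelial-like cells, a relative value of 1.22, and at 3.48 and 0.387 CPM in fibroblast-like cells, a relative value of −3.19 that rests on 138 and 24 sites.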

How the results depend on the processing

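No member promoter was called in either class under any alternative, and between 4 and 6 genes were 2-fold more open in epithelial-like cells. The counts of gene body regions moved in places. With cells thinned to 5000 sites, 22 regions were higher and 24 lower in epithelial-like cells (30 and 15 in the report), and in fibroblast-like cells 9 were higher (18) and 2 lower (15). Binarised counts gave 10 higher and 5 lower in fibroblast-like cells, and a minimum of 100 sites gave 6 and 6. The last follows from fewer regions tested, and for the others the cause was not tested. The share of all gene body regions called was not computed in these settings. The 10 named regions kept their direction and stayed past 2-fold in every setting. Beyond their counting interval moved 25 of 252 promoter changes and 64 of 252 ratios of the classes, some of which changed sign for Itgb1, Dst and Plec. The median of all epithelial promoters lay between −0.56 and −0.26 over the scalings. Counting the shallow Control cluster as epithelial-like, leaving out clusters 10 and 12 and using basic transcripts, all chosen after seeing the data, moved no count beyond 1.5 times. With 1 library a genotype no variation between embryos can be estimated.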
